A study of Mus musculus with 29 samples.

Results

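Cathepsins are the digestive proteases of the lysosome, and 10 of them were followed here in cultured cells of mouse fat: Ctsa, Ctsb, Ctsc, Ctsd, Ctsf, Ctsh, Ctsk, Ctsl, Ctss and Ctsz. The genes were found in the count table by the Ensembl identifiers that map to these symbols. The family itself was chosen with earlier results of these data known. All 10 were present among 56953 features, and all 10 passed the filter on low counts that left 8853 genes to test. The cells were the crude stromal vascular fraction (SVF), the mixed non-adipocyte cells released when white fat is digested, from adult C57BL6/J mice. SVF of inguinal fat (iWAT, a subcutaneous depot) and of perigonadal fat (pgWAT, a visceral depot) was grown in wells for 4 days in PM1 medium with 1 nM basic fibroblast growth factor, which every culture received. The labels gave iWAT 10 libraries from males and 9 from females, and pgWAT 4 from males and 6 from females, all made with the Smart-seq3 protocol from bulk RNA. The study describes such wells as technical replicates of a few independent experiments, fewer for pgWAT than for iWAT. The labels do not tie wells to animals or experiments, so p-values and SDs below measure the spread between wells. Differences between preparations cannot be told apart from those between depots.

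Most cathepsins are made as inactive precursors, carried to the lysosome by mannose-6-phosphate receptors and activated there at acid pH. They degrade proteins taken up by endocytosis or autophagy, and some are also secreted and cut collagen and other matrix proteins. Ctsd is an aspartic protease and Ctsa a serine carboxypeptidase, and the others are cysteine proteases. Macrophages are rich in many of them, and Ctss is best known from antigen-presenting cells, whereas Ctsk is known from osteoclasts and activated fibroblasts. Lyz2, the lysozyme of macrophages and other myeloid cells, is therefore used below as the reference for transcripts that cathepsins share with macrophages.

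Total counts ranged from 315316 to 1102234 per library. At this depth 3 counts, the limit that a count of 0 allows, were worth between 2.58 and 9.77 CPM (counts scaled to library totals, which were adjusted with TMM factors), counting error only. Each of the 10 genes had at least 1 count in every library. Fibroblast markers (Col1a1, Col3a1, Dcn, Lum, Pdgfra, Fn1) summed to between 6382 and 22743 CPM and adipocyte markers (Adipoq, Plin1, Cidec, Lep) to at most 43.0 CPM. The 18 macrophage markers summed to between 795 and 2899 CPM in iWAT and between 922 and 9524 CPM in pgWAT. Sex-linked transcripts (Xist against 4 Y-linked genes) matched the label in 19 of 19 iWAT libraries and in 5 of 10 pgWAT libraries. In pgWAT, the libraries with the labels male replicate 2, male replicate 4, female replicate 2 and female replicate 3 went against their labels, and the library labelled pgWAT female replicate 1 held both kinds of transcript. Calls, lists and correlations are given below with and without these 5 libraries, while levels per library and ranges use all 29. The group sizes in the study's methods and in its supplementary legends differ from each other and from the labels, and groups were kept as labelled.

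The promoters of 4 cathepsins are shown because Ctsd and Ctsa carry the CACGTG box read by lysosomal transcription factors of the TFEB family, while Ctsk and Ctss, next to each other on chromosome 3 with 0 coding genes between them, differed between the depots in opposite directions. The windows are the 250 bases before the annotated start in RefSeq (GRCm38.p6), at chr7:142387828-142388077 on the minus strand for Ctsd, chr2:164833523-164833772 on the plus strand for one of 2 entries of Ctsa, and chr3:95498960-95499209 and chr3:95526536-95526785, both on the plus strand, for Ctsk and Ctss. Each reads 5′ to 3′ along the gene, with CACGTG in capitals.
Ctsd: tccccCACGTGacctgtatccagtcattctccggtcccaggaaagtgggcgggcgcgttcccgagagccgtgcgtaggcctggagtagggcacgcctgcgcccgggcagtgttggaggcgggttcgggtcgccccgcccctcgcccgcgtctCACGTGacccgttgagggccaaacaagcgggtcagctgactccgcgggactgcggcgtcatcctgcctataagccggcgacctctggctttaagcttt
Ctsa: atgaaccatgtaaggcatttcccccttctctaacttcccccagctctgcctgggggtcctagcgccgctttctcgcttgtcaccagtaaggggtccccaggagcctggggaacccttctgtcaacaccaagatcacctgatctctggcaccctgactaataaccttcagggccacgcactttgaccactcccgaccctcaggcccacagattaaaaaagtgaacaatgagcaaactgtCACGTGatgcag
Ctsk: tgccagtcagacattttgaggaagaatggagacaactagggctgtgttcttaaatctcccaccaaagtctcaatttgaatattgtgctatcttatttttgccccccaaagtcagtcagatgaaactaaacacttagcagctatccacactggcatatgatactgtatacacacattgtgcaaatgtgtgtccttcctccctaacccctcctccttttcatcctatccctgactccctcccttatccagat
Ctss: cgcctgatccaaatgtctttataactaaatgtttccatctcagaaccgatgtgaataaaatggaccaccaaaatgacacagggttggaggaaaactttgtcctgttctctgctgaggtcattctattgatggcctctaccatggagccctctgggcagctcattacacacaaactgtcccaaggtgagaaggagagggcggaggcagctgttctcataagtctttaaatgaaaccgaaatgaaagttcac

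A promoter entry was found for 8 of the 10 genes, which gave 9 promoters. The palindrome CACGTG occurred in 4 of the 9, those of Ctsd (at 2 places), Ctsa, Ctsl and Ctsf, and in 6.02% of all 32851 promoters of the same length. The longer form TCACGTGA, which contains it, was in 2 of the 9 (Ctsa and Ctsd) and in 0.785% of all promoters, and the full CLEAR motif, longer by 1 base at each end, was in 0 of the 9 and in 0.24% of all. The AP-1 letters TGANTCA were in 0 of the 9 (6.75% of all). Read on both strands, CCAAT was in 2, Ctsz and Ctsf (33.8% of all), and the purine-rich GAGGAAGT in 1, Ctsc (2.44% of all). These matches describe letters in a fixed window.

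The first question was how the 10 transcripts were distributed within each depot. Together they took 0.782% ± 0.107 of all counts in iWAT (SD, n = 19) and 1.23% ± 0.408 in pgWAT (SD, n = 10), with ranges of 0.643% to 1.03% and of 0.815% to 1.92%. Ctsb alone held 44.1% ± 1.93 of the cathepsin counts in iWAT and 42.1% ± 1.73 in pgWAT. Its share of the family thus differed little between libraries, while that of Ctss ran from 0.552% to 4.04% over the pgWAT libraries. In the 5 pgWAT libraries whose labels were not in doubt the 10 transcripts took 1.23% ± 0.549 of counts (SD, n = 5).

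Levels of different genes were compared per kilobase of the longest coding transcript. In iWAT Ctsd led with 771 ± 210 CPM per kb (SD, n = 19), followed by Ctsb with 719 ± 99.0. These neighbours overlapped, Ctsd being the higher in 12 of 19 libraries. Ctsz came next at 392 ± 63.8 CPM per kb, below the range of Ctsb and above that of Ctsl (199 ± 27.6). Ctsl was above Ctsk (184 ± 43.0) in 13 of 19 libraries. Ctsa (92.5 ± 18.7), Ctss (81.8 ± 25.7) and Ctsh (76.3, from 45.0 to 124) then followed with overlapping ranges. Ctsc, from 5.62 to 22.5 CPM per kb, and Ctsf (4.31 ± 2.59) were lowest.

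In pgWAT the order per kilobase began with the same genes, Ctsd at 1446 ± 797, Ctsb at 1117 ± 377 and Ctsz at 809 ± 219 CPM per kb (SD, n = 10). Ctsh held the fourth place in pgWAT with 249 ± 32.8 CPM per kb, against the eighth in iWAT, and overlapped with Ctsl (239 ± 78.0) and Ctss (220 ± 194). Ctsa had 181 ± 21.7 CPM per kb, and Ctsk 133 ± 21.0. Ctsk lay below Ctsa in 10 of 10 pgWAT libraries and above it in 19 of 19 iWAT libraries. The place of Ctsh was the fifth, behind Ctss, without the 5 libraries of doubtful label. It also depended on the length used: with all exons joined it was eighth of 10 in both depots.

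**Figure D1:**
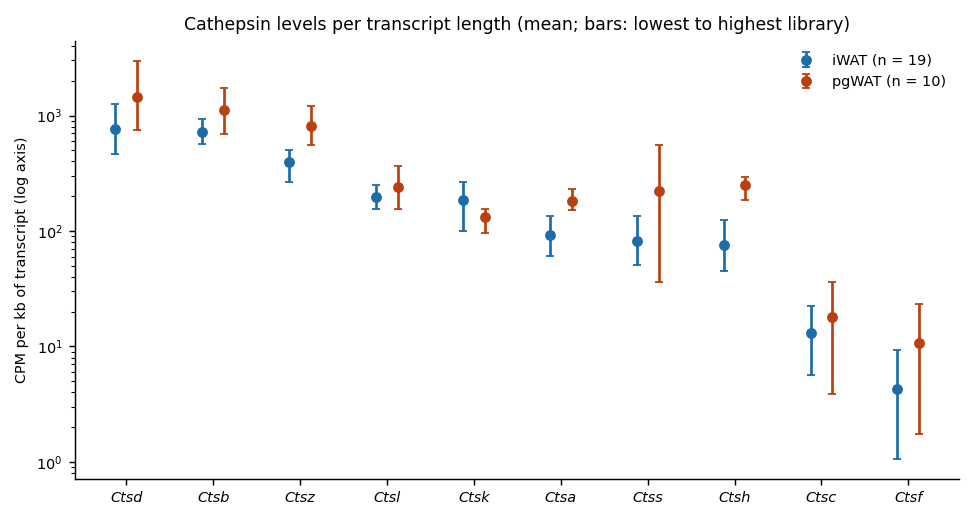
Level of each cathepsin per kilobase of its longest coding transcript (CPM per kb, log axis) in iWAT (n = 19) and pgWAT (n = 10), with points for means and bars from the lowest to the highest library. Ctsd, Ctsb and Ctsz lead in both depots, and Ctsk is the gene whose iWAT mean lies above its pgWAT mean.

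The depot comparison asked which cathepsins differed between cultures of pgWAT and iWAT. With edgeR's quasi-likelihood test and a Benjamini-Hochberg FDR below 0.05, both labelled sexes weighted equally, 7 cathepsins (Ctsa, Ctsb, Ctsd, Ctsf, Ctsh, Ctss, Ctsz) were higher in pgWAT, Ctsk was lower, and Ctsc and Ctsl were not called. Over all 8853 genes 38.1% were called, 20.2% higher and 17.9% lower in pgWAT. The median log2 fold change was 0.98 over the 10 cathepsins and 0.01 over all genes. Without the 5 libraries of doubtful label 7 cathepsins were called, all but Ctsf of the same 8, against 23.7% of all genes. For Ctsa, Ctsh and Ctsz each of the 10 pgWAT libraries lay above all 19 iWAT libraries, a separation in that direction seen for 1.47% of all genes (2.13% in either direction and 0.666% with pgWAT below).

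Ctsh, an aminopeptidase of the lysosome, differed most. Its level in iWAT ran from 72.8 CPM to 201 with a median of 118, and in pgWAT from 301 CPM to 478 with a median of 403. The log2 fold change was 1.69 ± 0.11 (SE), or 3.23-fold (edgeR FDR 2.73e-14). In the libraries labelled pgWAT male Ctsh had 354, 478, 301 and 410.1 CPM, and in those labelled pgWAT female 404, 474, 402, 436, 396 and 374 CPM. The spread of pgWAT libraries was thus narrow, 13.2% of the mean, and the lowest pgWAT library lay above the highest iWAT library.

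Ctsa, also called the protective protein because it stabilizes neuraminidase 1 and beta-galactosidase in the lysosome, ranged from 221 CPM to 494 in iWAT (median 316) and from 553 CPM to 849 in pgWAT (median 656). The log2 fold change was 0.98 ± 0.09 (edgeR FDR 2.12e-10). The 4 libraries labelled pgWAT male were almost level, at 670.4, 677, 679 and 681 CPM. Ctsz, a carboxypeptidase, had 381 CPM to 731 in iWAT (median 564) and 801 CPM to 1727 in pgWAT (median 1105), a log2 fold change of 1.05 ± 0.11 (edgeR FDR 3.55e-09). The annotation places Ctsa opposite Pltp and Neurl2, Ctsz opposite Nelfcd and Ctsb opposite Fdft1, and without strand their reads cannot be told apart where they overlap.

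Ctsb, the most abundant cathepsin by counts and both an endopeptidase and a dipeptidase, ranged from 2676 CPM to 4434 in iWAT (median 3323) and from 3272 CPM to 8187 in pgWAT (median 5001). Its log2 fold change was 0.66 ± 0.11 (edgeR FDR 1.93e-05), with 6 of 10 pgWAT libraries above all iWAT libraries. Ctsd, the aspartic protease, had 980 CPM to 2687 in iWAT (median 1634) and 1580 CPM to 6355 in pgWAT (median 2451). The log2 fold change was 0.97 ± 0.17 (edgeR FDR 2.24e-05), and 5 of 10 pgWAT libraries overlapped with iWAT. Ctsd shares 33.2% of its 31-base words with Gm49369, an overlapping model on the same strand, but Gm49369 held only 2.33 counts in the whole series against 37732 of Ctsd.

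Ctss, the cathepsin that trims the invariant chain of MHC class II, showed the widest range within pgWAT. It ran from 68.0 CPM to 183 in iWAT (median 98.1) and from 48.8 CPM to 753 in pgWAT (median 194). The log2 fold change was 1.49 ± 0.25 (edgeR FDR 1.45e-05). Single pgWAT libraries went both ways: 5 were above all iWAT libraries and 1 was below them all. The highest and lowest pgWAT libraries stood 15.4-fold apart, against 2.69-fold in iWAT.

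Ctsf, a less studied papain-like cysteine protease, was the rarest of the 10, with 1 to 31 counts per library. It had 2.10 CPM to 18.5 in iWAT (median 6.88) and 3.47 CPM to 46.0 in pgWAT (median 19.3), a log2 fold change of 1.15 ± 0.28 (edgeR FDR 0.00143). Many of its iWAT values were near the worth of 3 counts. Without the 5 libraries of doubtful label Ctsf was no longer called (log2 fold change 1.01 ± 0.38), which made it the one cathepsin whose depot call those libraries decided.

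Ctsk, a collagenase best known from bone resorption, was the one cathepsin lower in pgWAT. It ranged from 151 CPM to 404 in iWAT (median 284) and from 146 CPM to 233 in pgWAT (median 209). All 10 pgWAT libraries lay below the iWAT mean and 1 lay below every iWAT library. The log2 fold change was -0.49 ± 0.12 (edgeR FDR 0.00181). With well column as a further factor it was -0.32 ± 0.13 and not called.

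The remaining pair was not called. Ctsc, the dipeptidyl peptidase that activates serine proteases of neutrophils, mast cells and cytotoxic lymphocytes, ranged from 18.1 CPM to 72.3 in iWAT and from 12.5 CPM to 115 in pgWAT. Its pgWAT libraries lay both above (4) and below (2) all iWAT libraries, and the log2 fold change of 0.50 had a 95% interval from -0.02 to 1.02 (edgeR FDR 0.123). Leaving out the library labelled pgWAT female replicate 4 or pgWAT male replicate 4 brought it past the threshold, at 0.61 and 0.64. Of the 8 proteases that Ctsc activates, 0 had enough counts to be tested. Ctsl, a cysteine endopeptidase found in most cells, had 958 CPM to 1532 in iWAT and 948 CPM to 2239.8 in pgWAT, a log2 fold change of 0.28 with an interval from 0.03 to 0.52 (edgeR FDR 0.0674).

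**Figure D2:**
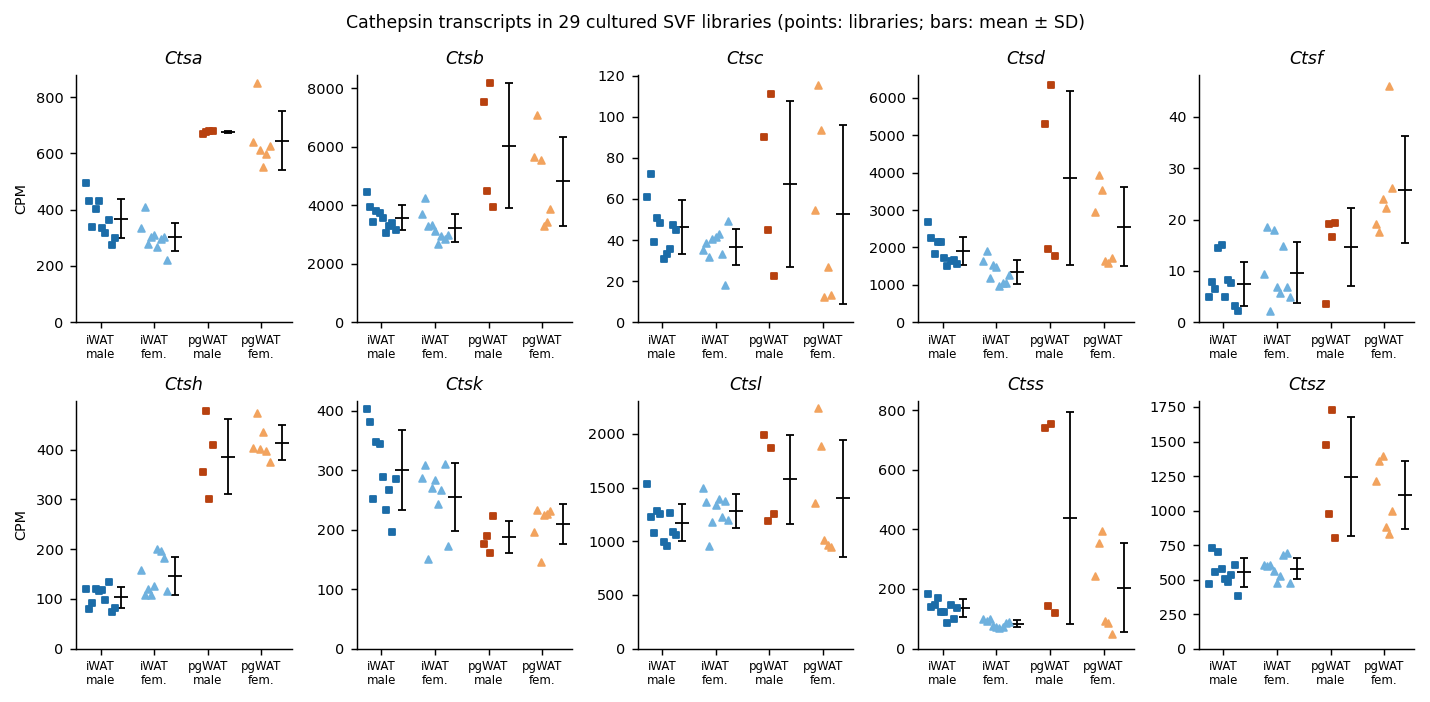
CPM of the 10 cathepsins in each library by depot and labelled sex (squares, labelled male; triangles, labelled female), with bars for the group mean ± SD and axes from 0. Ctsa, Ctsh and Ctsz are higher in all 10 pgWAT libraries than in any iWAT library, while Ctss, Ctsd, Ctsb, Ctsc and Ctsl spread widely within pgWAT.

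Well column, taken from the plate position in the labels, was uneven over the depots, so the contrast was repeated within each of the 4 columns. The labels do not name the plate or call the column a batch. Column 8 had 4 pgWAT and 3 iWAT libraries, and column 9 had 2 and 4. In each of them 3 cathepsins were called (against 7.97% of all genes in column 8 and 22.1% in column 9), Ctsa (1.08 ± 0.14 and 1.16 ± 0.19), Ctsh (1.01 ± 0.14 and 2.07 ± 0.18) and Ctsz (0.72 ± 0.20 and 0.82 ± 0.16). Ctss stood at 1.71 ± 0.73 in column 8 and at 0.22 ± 0.24 in column 9, and Ctsd at 1.31 ± 0.38 and 0.25 ± 0.18, none of them called. Ctsb (0.68 ± 0.25 and 0.38 ± 0.15) and Ctsk (-0.36 ± 0.16 and -0.20 ± 0.22) kept their direction without a call. Both pgWAT libraries of column 9 were among those with doubtful labels. Lyz2 in the pgWAT libraries was 954 and 881 CPM in column 9, and 6445, 600, 557 and 635 CPM in column 8. It was 6871 CPM in column 7 and 1864, 2871 and 2669 CPM in column 10. The part of Lyz2 in the differences between columns was not tested. Columns 7 and 10 held 1 library of a depot each, which is assumed to vary like the others, and were fitted as alternatives chosen after seeing the data. Column 7, with 1 pgWAT and 11 iWAT libraries, called 6 cathepsins (Ctsb, Ctsc, Ctsd, Ctsh, Ctss and Ctsz, all higher in pgWAT) against 3.71% of all genes. Column 10, with 3 pgWAT libraries, all of doubtful label, and 1 iWAT library, called 8, those 6 with Ctsa and Ctsl, against 11.5% of all genes. Ctsk was at -0.96 ± 0.32 in column 7 and at 0.32 ± 0.32 in column 10, called in neither.

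Within labelled sexes the depot contrast called 7 cathepsins in each. In labelled males these were 6 higher in pgWAT plus Ctsk lower (20.3% of all genes called, 8.53% lower), and in labelled females 7 higher (26.8% of all genes called). Ctsk was called in labelled males alone, at -0.68 ± 0.18 against -0.29 ± 0.16 in labelled females. Ctsf was called in labelled females alone, at 1.40 ± 0.36 against 0.89 ± 0.43 in labelled males. The depot by sex interaction did not separate these values (edgeR FDR 0.674 for Ctsk and 0.863 for Ctsf). Without the 5 libraries of doubtful label 9 cathepsins were called in labelled males (9.16% of all genes), with Ctsc and Ctsl higher as well. In labelled females 6 were then called (18.3% of all genes), Ctsa, Ctsf, Ctsh and Ctsz higher but Ctsc and Ctsl lower in pgWAT.

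Markers of other cells moved with depot too. Over all genes 20.2% were higher in pgWAT and 17.9% lower. Of 15 tested macrophage markers 12 were higher in pgWAT and 0 lower, led by the complement genes C1qa (log2 fold change 1.97 ± 0.27) and C1qc (1.97 ± 0.28), and Lyz2 itself was 1.15 ± 0.26 higher (edgeR FDR 0.000566). Summed fibroblast markers ran from 6382 to 12215 CPM in iWAT and from 11688 to 22743 CPM in pgWAT. Of 6 fibroblast markers 5 were called higher in pgWAT and 0 lower, but Lum had a mean of 352 CPM in iWAT and 228 CPM in pgWAT. Without the 5 libraries of doubtful label 2 of the 6 were higher and Lum was lower (-1.15 ± 0.24), against 23.7% of all genes called. Summed mesothelial markers ran from 1.96 to 103 CPM in iWAT and from 59.1 to 190 CPM in pgWAT. Of 4 tested mesothelial markers 3 were higher in pgWAT and the keratin Krt19 was lower (-1.43 ± 0.42). Krt19 ran from 1.96 to 98.4 CPM in iWAT and from 2.78 to 23.9 CPM in pgWAT. Upk3b, a defining marker, ran from 0 to 0.860 CPM in iWAT and from 19.1 to 72.0 CPM in pgWAT, and Wt1 from 0 to 2.54 CPM and from 9.66 to 40.1 CPM. Whether the depot differences of cathepsins reflect more cells of a type or more RNA per cell cannot be told apart in bulk cultures, and the part of the mesothelial and fibroblast markers was not tested.

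The relation to macrophage RNA was examined through Lyz2. Lyz2 ranged from 504 to 2164 CPM in iWAT. In the libraries labelled pgWAT male it had 6445, 954, 6871 and 881 CPM, and in those labelled pgWAT female 1864, 2871, 2669, 600, 557 and 635 CPM. The 5 pgWAT libraries with Lyz2 of 1864 CPM or more were those with 10 or more counts of Y-linked genes, so in pgWAT Lyz2 and the sex-linked transcripts cannot be told apart. Reads of the paralog Lyz1, which shares 32.8% of the 31-base words of Lyz2, made up at most 2.26% of the sum of both.

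Within the 4 groups, the change of each cathepsin per log2 CPM of Lyz2 was fitted with edgeR over all 29 libraries. Of the 10 cathepsins 6 rose with Lyz2, 0 fell and 4 were not called, while over all 8852 genes tested 8.08% were called, 4.76% rising and 3.32% falling. Ctss had the steepest slope, 0.90 ± 0.06 (SE, edgeR FDR 2.15e-12), close to a proportional change. Ctsc followed with 0.74 ± 0.10 (FDR 3.64e-06), and Ctsd with 0.58 ± 0.05 (FDR 1.54e-10). The slopes of Ctsb (0.36 ± 0.04), Ctsl (0.32 ± 0.05) and Ctsz (0.29 ± 0.05) were shallower and also called. The slopes of Ctsa (0.10 ± 0.06), Ctsk (-0.07 ± 0.08), Ctsh (-0.09 ± 0.07) and Ctsf (-0.23 ± 0.17) were not called, and the 95% interval of Ctsh ran from -0.23 to 0.05.

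Library values showed the same order. In the libraries labelled pgWAT male, Ctss had 739.9, 144, 753 and 119 CPM, high in replicates 1 and 3 where Lyz2 was high. In those labelled pgWAT female it had 243, 356, 396, 92.8, 86.1 and 48.8 CPM, again high where Lyz2 was. Per 100 counts of Lyz2 there were 7.69 to 15.5 counts of Ctss in pgWAT and 5.29 to 16.8 in iWAT, although Lyz2 itself varied 12.3-fold in pgWAT. Ctsd had 5311, 1963, 6355 and 1774 CPM in the libraries labelled pgWAT male and 2940.4, 3938, 3540.5, 1624, 1580 and 1719 CPM in those labelled pgWAT female. Per 100 counts of Lyz2, Ctsd fell from 284 at most to 82.4 at least in pgWAT, so it rose less than in proportion to Lyz2.

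**Figure D3:**
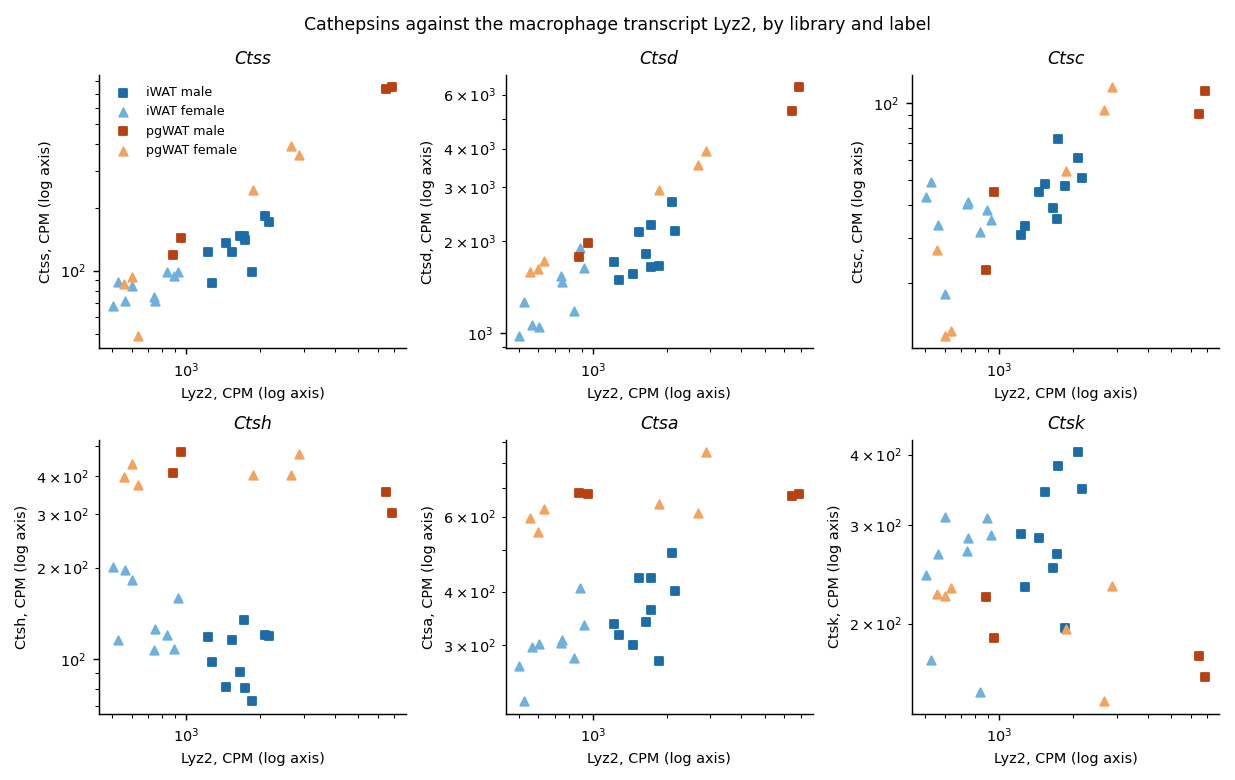
CPM of 6 cathepsins against CPM of Lyz2 in 29 libraries (both axes log), colored by depot and labelled sex. Ctss, Ctsd and Ctsc climb with Lyz2, whereas Ctsh and Ctsa lie in a separate, higher band in pgWAT at any Lyz2 level and Ctsk had no called slope.

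These slopes rest largely on pgWAT. Fitted on the 10 pgWAT libraries alone the same 6 genes were called, Ctss at 0.93 ± 0.07, against 8.24% of all genes. On the 19 iWAT libraries alone edgeR called 0 of them (4 at an unadjusted p under 0.05) and 0.0693% of all genes, with Ctss at 0.56 ± 0.19 (FDR 0.245) and Ctsd at 0.74 ± 0.17 (FDR 0.0658). Without the 5 pgWAT libraries of doubtful label only Ctsd was called (0.75 ± 0.16), against 0.315% of all genes, and Ctss was at 0.54 ± 0.21. Ctsa was then at 0.50 ± 0.17, not called. The pgWAT libraries left there held 6445 and 6871 CPM of Lyz2 in labelled males and 557, 600 and 635 CPM in labelled females. Little range of Lyz2 was left within either group, so this fit cannot show the relation within pgWAT. With the mean of the other macrophage markers in place of Lyz2 the 6 genes were called again, and the share of all genes called in that fit is not given here. Of those markers 12 of 14 tested rose with Lyz2 over the same libraries, so that fit is not a separate check.

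At equal Lyz2 the depot contrast called the same 8 cathepsins, 7 higher and Ctsk lower in pgWAT, against 38% of all genes (19.2% higher). The sizes changed unevenly. Ctss fell from 1.49 to 0.47 ± 0.11 (edgeR FDR 0.00108), Ctsd from 0.97 to 0.42 ± 0.08 and Ctsb from 0.66 to 0.36 ± 0.07. Ctsz kept 0.81 ± 0.09 and Ctsa 0.92 ± 0.09, and Ctsh had 1.75 ± 0.11 (FDR 9.57e-15). Ctsk stood at -0.45 ± 0.13, Ctsc at -0.26 ± 0.19 and Ctsl at 0.00 ± 0.09. Without the 5 libraries of doubtful label 4 cathepsins were called at equal Lyz2 (11.3% of all genes), Ctsh (1.84 ± 0.25), Ctsz (0.84 ± 0.20) and Ctss (0.71 ± 0.22) higher and Ctsk (-0.82 ± 0.25) lower. Ctsa went there from 0.90 ± 0.12 to 0.46 ± 0.19 when Lyz2 entered and was not called. Ctsk moved there from -0.52 ± 0.16 to -0.82. In this fit Lyz2 varied little within the pgWAT groups.

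**Figure D4:**
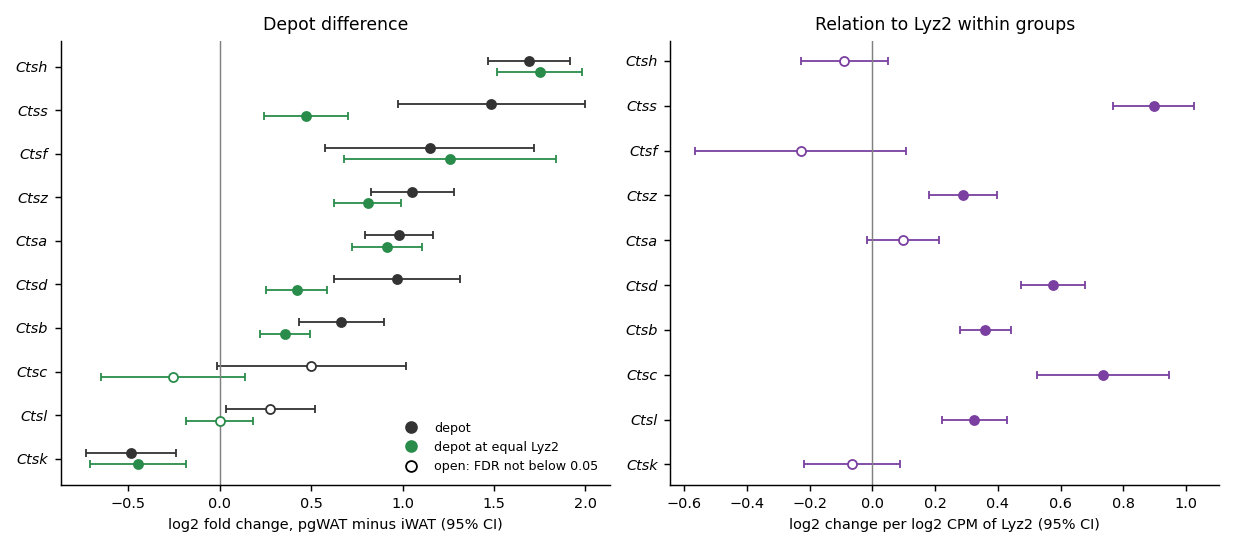
Left, log2 fold change of pgWAT minus iWAT for each cathepsin without and with Lyz2 in the model; right, log2 change per log2 CPM of Lyz2 within groups. Bars are 95% intervals over all 29 libraries and open symbols were not called. Ctsh, Ctsa and Ctsk hardly move when Lyz2 enters, whereas Ctss, Ctsd and Ctsb shrink toward 0. Without the 5 libraries of doubtful label, which are included here, Ctsa also shrank, from 0.90 to 0.46.

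The genes most alike were sought among genes with a mean log2 CPM of at least 5, by Pearson's r of log2 CPM centred within groups. These r are a description over 29 libraries, which differ in depth and which the labels do not tie to experiments. Ctss was most like Mmp12 (r = 0.94), a macrophage elastase, and Lyz2 (0.94). Ctsd was nearest to Efemp1 (0.97), its fellow cathepsin Ctsb (0.96) and Gpnmb (0.96), and Ctsb to Ctsd and Gpnmb (0.94). Ctsc was nearest to Ccl6 (0.89), Ctsl to Il33 (0.90) and Ctsz to Psap (0.87), the precursor of the saposins. Ctsa was most like Plat (0.86), Ctsk most like Slfn5 (0.87) and B2m (0.85), and Ctsf most like Sqstm1 (0.79). Ctsh had no close match, its nearest being Ubald2 (0.63). With Lyz2, r was 0.94 for Ctss, 0.93 for Ctsd and 0.92 for Ctsb, but -0.19 for Ctsk and -0.24 for Ctsh. Over the 24 libraries left without those of doubtful label, r with Lyz2 was 0.46 for Ctss, 0.73 for Ctsd, 0.75 for Ctsb, 0.25 for Ctsk and -0.27 for Ctsh. For Ctsa r with Lyz2 was 0.33 over 29 libraries and 0.58 over these 24. Centred within groups, these 24 hold little range of Lyz2 in pgWAT, so their r cannot show the relation within that depot. Over the same 24 libraries r of Ctss with Mmp12 was 0.66 and that of Ctsc with Ccl6 0.53. Ctsd and Ctsb kept 0.92, Ctsa and Plat 0.87 and Ctsk and Slfn5 0.93.

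In iWAT, where sex-linked transcripts matched every label, the sexes were compared. Ctsh was the 1 cathepsin called, lower in males at 103 ± 21.1 CPM (SD, n = 10) than in females at 146 ± 38.8 CPM (SD, n = 9), while 3.22% of all genes were called, 2.13% lower in males. All 10 male libraries lay below the female mean, the groups overlapped, and the log2 difference was -0.50 ± 0.14 (edgeR FDR 0.0379). This call was lost when any of 9 single libraries was left out (iWAT female replicates 1, 6, 7 and 8, iWAT male replicates 2, 3, 7, 9 and 10), within well column 7 (-0.27 ± 0.17, 3.23% of all genes called), and with well column as a factor (-0.34 ± 0.15). Summed epithelial markers moved with it, from 0 to 8.31 CPM in iWAT males and from 39.6 to 1870.3 CPM in iWAT females, and their part in the difference was not tested.

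Ctss had 136 ± 29.4 CPM in iWAT males and 83.4 ± 12.1 CPM in iWAT females, with 8 of 10 male libraries above all 9 female ones. Its log2 difference of 0.71 ± 0.32 was not called in the fit over 29 libraries (FDR 0.249), whose spread includes pgWAT, but was called when the iWAT libraries were fitted alone (0.71 ± 0.13, FDR 0.000805, 5.68% of all genes called), within well column 7 (0.76 ± 0.17) and with well column as a factor (0.99 ± 0.28). Ctsd was likewise called in iWAT alone (0.50 ± 0.13, FDR 0.0167), at 1909 ± 381 CPM in males and 1342 ± 311 CPM in females. Lyz2 moved in the same direction, at 1222 to 2164 CPM in males and 504 to 925 CPM in females without overlap, as for 0.52% of all genes (0.328% with males below). With Lyz2 in the model the male minus female differences of Ctss and Ctsd were -0.41 ± 0.15 and -0.20 ± 0.11, neither called. Lyz2 did not overlap between these sexes and its slopes rest largely on pgWAT, so this fit cannot compare the sexes at equal Lyz2. Without the 5 pgWAT libraries of doubtful label 3 cathepsins were called between the iWAT sexes, Ctsh lower and Ctss and Ctsd higher in males, against 5.84% of all genes.

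Between labelled sexes in pgWAT 0 cathepsins were called by edgeR (2 at an unadjusted p under 0.05, Ctss and Ctsd, and 0 by DESeq2 or limma-voom), as were 0 for the depot by sex interaction (0 at an unadjusted p under 0.05), where 0.0113% and 0.181% of all genes were called (0.0791% below 0 in the interaction). Without the 5 libraries of doubtful label, 2 labelled male and 3 labelled female libraries remained, and 6 cathepsins (Ctsb, Ctsc, Ctsd, Ctsl, Ctss, Ctsz) were called in each contrast, all higher in labelled males, against 5.63% of all genes between the sexes and 2.56% in the interaction. These 6 are the genes that rose with Lyz2, and the 2 remaining male libraries held 6445 and 6871 CPM of Lyz2 against 557 to 635 CPM in the 3 female ones. The Lyz2 slopes rest largely on pgWAT and include these libraries, so the match is not a separate result. The part of Lyz2 in this contrast was not tested.

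The partners of cathepsins were read from lists of lysosomal genes, by counts and medians in the depot contrast. For comparison, 20.2% of all genes were higher in pgWAT and 17.9% lower, with a median log2 fold change of 0.01. Among 26 tested glycosidases, lipases and related hydrolases 23 were higher in pgWAT and 0 lower, with a median log2 fold change of 0.70. Gm2a, the activator of ganglioside breakdown, was 2.51 ± 0.16 higher, and Naglu, which degrades heparan sulfate, 2.31 ± 0.21. Of 15 membrane proteins and proton pump subunits 10 were higher and 0 lower, among them the pump subunits Atp6v0d2 (1.85 ± 0.31) and Atp6v1b2 (0.89 ± 0.11). Sorting genes were higher in 4 of 7, led by Scarb2 (2.18 ± 0.15), the receptor of glucocerebrosidase, and M6pr (0.47 ± 0.12), a mannose-6-phosphate receptor. Among 9 processing enzymes and partners 7 were higher, including Neu1, the sialidase bound by Ctsa (0.77 ± 0.19), and Dpp7 (0.99 ± 0.14). Of 3 tested transcription factors Mitf alone was called (0.48 ± 0.15). Without the 5 libraries of doubtful label M6pr (0.32 ± 0.15), Neu1 (0.64 ± 0.26) and Mitf (0.33 ± 0.14) were not called. The other genes named in this paragraph were still called there.

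At equal Lyz2 the hydrolases stood at 21 of 26 higher, the membrane and pump genes at 8 of 15, the partners at 5 of 9 and the sorting genes at 3 of 7, with 0 lower in each list. Over all genes 19.2% were then higher and 18.8% lower. The macrophage markers went from 12 of 15 to 5 of 14 higher. Of all genes 4.76% rose with Lyz2 and 3.32% fell. With Lyz2 itself, 2 of 26 hydrolases (Lipa and Npc2) and 0 of 7 sorting genes rose, against 6 of 10 cathepsins and 12 of 14 macrophage markers. Of the membrane and pump genes 5 of 15 rose with it, with the steepest slope for Atp6v0d2 (0.81 ± 0.13), and of the partners 3 of 9, among them Psap (0.55 ± 0.06) and Grn (0.29 ± 0.07), with 0 falling in either list.

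These list counts changed without the 5 libraries of doubtful label, a fit of the lists chosen after seeing the data. Between the depots 15 of 26 hydrolases, 9 of 16 membrane and pump genes, 4 of 9 partners, 4 of 7 sorting genes, 4 of 6 inhibitors, 2 of 6 matrix genes and 12 of 16 macrophage markers were then higher in pgWAT, 0 were lower in these lists, and 0 of 3 transcription factors were called. Of all genes 23.7% were called there in either direction. At equal Lyz2 there were 4 of 26 hydrolases, 3 of 16 membrane and pump genes, 0 of 9 partners, 2 of 7 sorting genes and 1 of 15 macrophage markers higher. Of all genes 11.3% were called at equal Lyz2, in either direction. With Lyz2 itself Psap was the 1 gene called in these lists (0.79 ± 0.17), with 0 of 26 hydrolases, 0 of 16 membrane and pump genes and 0 of 15 macrophage markers called. Over all genes 0.315% were called on Lyz2. Lyz2 varied little within the remaining pgWAT groups, so these slopes cannot show the relation within pgWAT.

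Inhibitors were measured too. Of 6 tested cystatins and serpins 4 were higher in pgWAT and Serpinb6a was lower (-0.39 ± 0.09), against 20.2% of all genes higher and 17.9% lower. The largest differences were those of Serpinb1a (1.60 ± 0.34), an inhibitor of neutrophil serine proteases, and Serpinb9 (1.02 ± 0.16), the inhibitor of granzyme B. Collagen and other matrix proteins that Ctsk can cut were higher in 4 of 6 cases and lower in 0, Col1a1 by 1.22 ± 0.18 and Fn1 by 0.63 ± 0.12, whereas Ctsk itself was lower. Without the 5 libraries of doubtful label Col1a1 was at 0.43 ± 0.16 and not called, while Fn1 was called at 0.65 ± 0.10. Of 13 further cathepsin genes 12 were too low to test, and Ctso was higher in pgWAT (0.56 ± 0.22, edgeR FDR 0.0472), but not without the 5 libraries of doubtful label (0.05 ± 0.31).

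**Figure D5:**
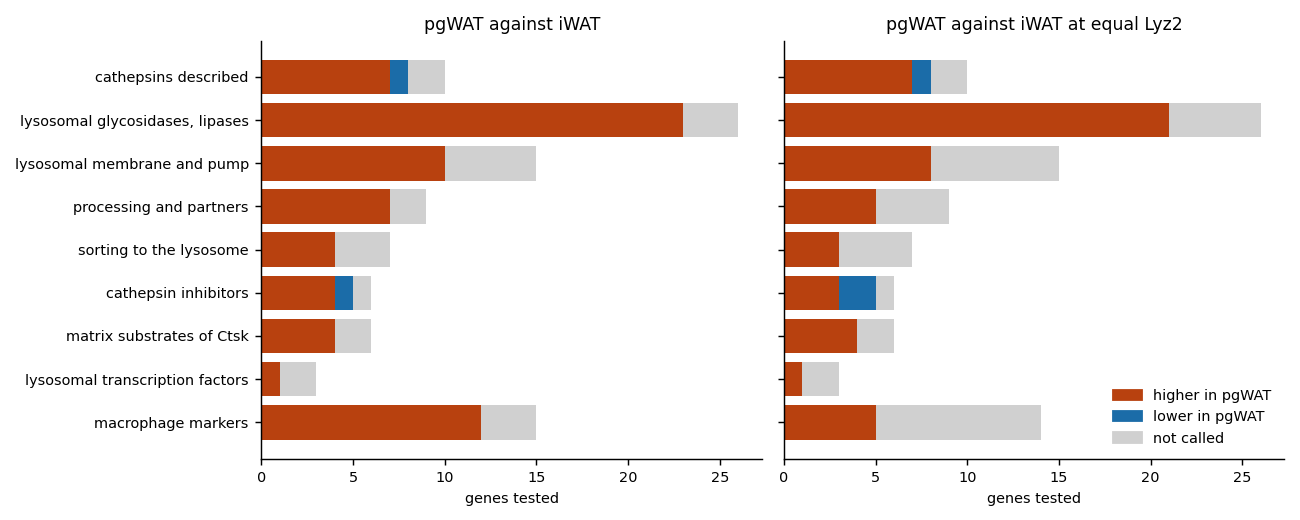
Number of tested genes in each list called higher in pgWAT, lower in pgWAT or not called, without (left) and with Lyz2 in the model (right). The hydrolases have 23 and then 21 of 26 genes higher, while macrophage markers go from 12 of 15 to 5 of 14. Of all genes 20.2% and then 19.2% were higher.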

How the data were processed

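RNA of 29 cultures was sequenced as Smart-seq3 libraries. The authors trimmed adapters with NGmerge and quantified reads, with and without molecular identifiers, with Salmon 1.9.0 against GRCm39 transcripts, and left out libraries in which few genes were detected. All deposited values are expected counts per gene, not normalized. Whether counting used strand is not given in the sources used here.

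Values were rounded to whole counts. Symbols were matched for 91.4% of features, and IDs without a symbol held 0.439% of counts. Transcript lengths, overlaps and shared words came from a GRCm38 annotation, whose build differs, so gene coordinates are not given. Genes passing edgeR's filterByExpr were tested with edgeR 4.0.16 under R 4.3.3 (TMM, quasi-likelihood F test, 4 group means, two-sided, Benjamini-Hochberg FDR below 0.05). The Lyz2 fit added log2 CPM of Lyz2 (prior count 2). SEs came from the F statistic. Alternatives were DESeq2 1.42.0, limma-voom (limma 3.58.1), other scalings, filters, covariates and left-out libraries. The analysis was tested on simulated data with 200 changed genes.

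Labels gave no replicate numbers, so libraries were numbered in deposition order. No pair of libraries in a group agreed within sampling noise (lowest chi-square per degree of freedom 1.50). All 10 cathepsins are named. Of each other list, the called genes with the largest changes were named, at most 2 in each direction, beside Lyz2. Cathepsins and lists were chosen with earlier results of these data known.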

Additional observations from a re-analysis of the deposited data

Results flagged for a closer look

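Each of the 10 cathepsins and Lyz2 was examined in each of the 4 groups for a library far from the others, 44 sets of values in all, of which 3 held one by Dixon's criterion. Chance alone gives about 1 in 20. Ctsa had 849 CPM in the library labelled pgWAT female replicate 2, with the next at 641 CPM. Ctsf had 46.0 CPM in the library labelled pgWAT female replicate 5 (next 26.0), and 3.47 CPM in the library labelled pgWAT male replicate 1 (next 16.7), where 3 counts were worth 5.21 CPM. The 2 sets of Ctsf rest on few counts.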

How the results depend on the processing

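The depot count of 8 cathepsins kept its side under DESeq2, limma-voom, both other scalings, both other filters, depot means without sex, with well column as a factor (7) and without the 5 libraries of doubtful label (7), and ranged from 8 to 10 when single libraries were left out. It fell to 3 within well column 8 and to 3 within well column 9, in both cases Ctsa, Ctsh and Ctsz; fewer libraries were fitted there, and Ctsf gave no value in column 9. In columns 7 and 10, added after seeing the data, it was 6 and 8, and Ctsk changed sign in column 10 (0.32). Within those columns Ctsl (-0.12, column 8) and Ctsc (-0.19, column 9) changed sign. The count of 6 on Lyz2 was 6 without any single library, 0 in iWAT alone (4 members at an unadjusted p under 0.05) and 1 without the 5 libraries, where Ctsf (0.70) and Ctsk (0.34) changed sign, as did Ctsk in iWAT alone (0.35). Without the 5 libraries little range of Lyz2 was left within the pgWAT groups. At equal Lyz2 the count of 8 fell to 4 without the 5 libraries. There Ctsl, at 0.00, changed sign with the filter of the study (-0.016), without a filter (-0.015), on total counts (-0.0196) and without the 5 libraries (-0.078), and ranged from -0.065 to 0.029 without single libraries.

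The iWAT sex count of 1 was 0 with limma-voom (4 at an unadjusted p under 0.05), 2 without a filter, 3 in iWAT alone, 3 without the 5 libraries, and 0 to 1 without single libraries. With well column as a factor and within column 7 it was 1 again, but the gene was Ctss, not Ctsh. With Lyz2 added, an alternative chosen after seeing the data together with depot means plus Lyz2, Ctsb (-0.30), Ctsc (-0.59), Ctsd (-0.20) and Ctss (-0.41) changed sign and Ctsl was called (-0.54). As Lyz2 did not overlap between the iWAT sexes, that fit cannot compare them at equal Lyz2. Ctsz changed sign with well column as a factor (0.082) and within column 7 (0.018). The pgWAT sex count of 0 became 1 (Ctss) without a filter, 1 (Ctss) with well column as a factor and 6 without the 5 libraries, as did the interaction (6). Apart from the smaller fits named above, the causes were not tested. No paired analysis was possible because the labels carry no replicate numbers. Depth limits Ctsf and Ctsc most. Counts in this section without a share of all genes beside them describe only whether the calls held.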
